A study of Homo sapiens with 10 samples.

Results

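The RNAs described here are the long non-coding RNA genes whose symbols consist of LINC and a number, the naming scheme used for transcripts first annotated between protein-coding genes. The members were chosen by the symbol and by the measured read counts, which had to sum to at least 200 over the 10 RNA-seq libraries, and 143 of the 1048 LINC-numbered genes in a table of 34567 genes passed. The rule itself used the summed count, so the abundance of these genes is a description, and the class was picked knowing that many non-coding genes were higher after MEOX2 knockdown in SNB19. Just outside the limit lay LINC01126 and LINC01786 with 197 counts each, and just inside it LINC02084 with 202 and LINC01426 with 212.

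Long non-coding RNAs of this kind are transcribed by RNA polymerase II, and many are capped, spliced and polyadenylated like messenger RNAs. Some act in the nucleus on transcription of nearby genes, some act in the cytoplasm as binding partners of proteins or microRNAs, some are mainly the precursors of microRNAs or circular RNAs, and a few contain short reading frames that are translated. They are generally less abundant than messenger RNAs and more restricted in the tissues that express them, and many have been studied in glioma because their levels differ between tumors.

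The 10 libraries came from SNB19 and U87, both established human glioblastoma cell lines, and the study asked what changes when MEOX2, a homeobox transcription factor of mesoderm and its derivatives, is lowered or raised. SNB19 cells received a negative control siRNA (NC, 3 libraries) or siRNA against MEOX2 (siMEOX2, 3 libraries), and the labels do not say which of the siRNA sequences of the study was used. U87 cells carried an empty lentiviral vector (EV, 2 libraries) or a lentiviral vector expressing MEOX2 (OE, 2 libraries), both as stable lines kept under puromycin selection. Neither line was treated in the other way, so the direction of the MEOX2 change and the cell line cannot be told apart between the experiments, nor can transient transfection and stable transduction. The sources do not say that the libraries of a group came from separate cultures or selections, so p-values measure the spread between these libraries, which may be technical.

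The libraries held 12533775 to 16560324 counts in genes. Levels are given as CPM, that is counts scaled to the library size after TMM normalization, where a gene is compared between libraries, and as the deposited FPKM, which also takes the length of the gene into account, where genes are compared with each other. MEOX2 itself had 249, 224 and 275 counts in SNB19 NC and 54, 40 and 49 in siMEOX2, 5.36-fold lower (log2 fold change -2.42 ± 0.14 SE, edgeR adjusted p = 9.1e-05). It had 0 counts in both U87 EV libraries and 4999 and 5308 in the OE libraries, at least 3270-fold higher against a floor of 3 counts over the EV group. MEOX2 was therefore low in the samples labeled as low and high in those labeled as high, and U87 EV started from no detectable MEOX2.

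One library stood apart before any LINC gene was considered. U87 EV replicate 1 had 13.0% of its counts in ribosomal protein genes, against 4.04% to 6.68% in the other 9 libraries, its counts came from genes with a mean exon length of 4774 bp against 5984 to 6404 bp, and its normalization factor was 0.6948 against 0.9501 to 1.1341. Its chi-square distance from the other EV library was 279.77 per degree of freedom, whereas the other replicate pairs lay between 2.06 and 6.56. The U87 and baseline results rest on it. Without it, 6 of 39 LINC calls in U87 and 8 of 103 at baseline were lost, and the fitted fold change moved over 1.5 times in 12 and 32 of them. Some counts of calls are given with and without it below, and others with it only. Values of named genes that it changed most are given with and without it. Because the libraries share an estimate of the spread, it also enters the errors of the SNB19 comparison.

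The 8 glial and glioma markers were present in part. SOX9 (959 to 1246 counts in SNB19 NC, 189 and 454 in U87 EV), NES (795 to 876, 273 and 196) and SOX2 (483 to 528, 0 and 1) were called higher in SNB19 NC, and OLIG2 (53 to 65, 87 and 66) and FABP7 (2 to 8, 19 and 6) higher in U87 EV. GFAP, the astrocyte filament gene, had 60 to 75 counts in NC and 40 and 32 in EV and was not called. S100B and PTPRZ1 were near 0, with at most 5 and 6 counts in any library. The 3 immune markers in the table (PTPRC, CD68, AIF1) summed to at most 0.347 CPM in every library.

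**Figure D1:**
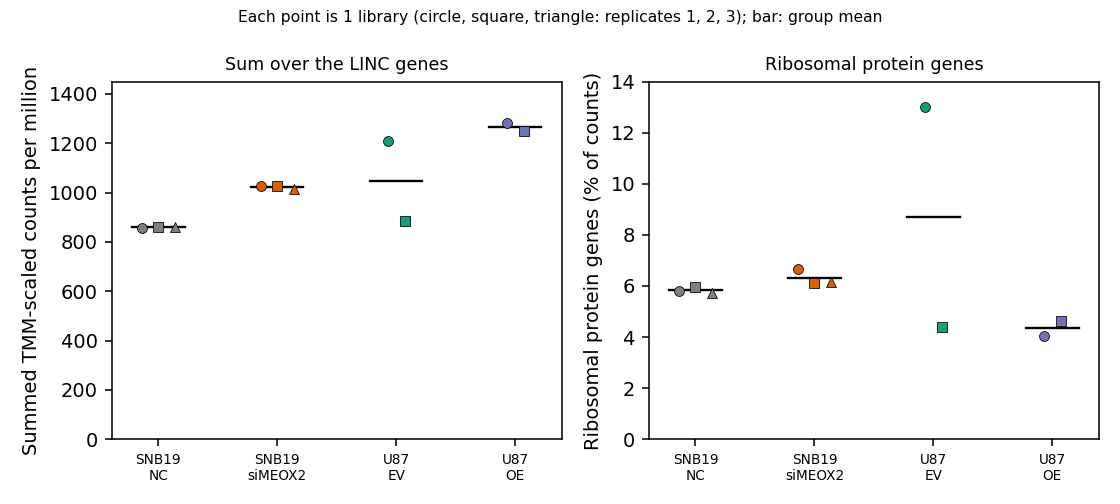
Summed level of the 143 LINC genes in TMM-scaled CPM (left) and percent of counts in ribosomal protein genes (right) for each of the 10 libraries, by group. Points are libraries and bars group means; U87 EV replicate 1 is the highest on the right at 13.0% and lies apart from EV replicate 2 on the left.

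Despite the LINC symbol, not all of the 143 genes lie between genes. The GENCODE v29 annotation (GRCh38), with which every gene ID of the table matched, classed 114 as lincRNA, 12 as processed transcripts, 7 as antisense, 5 as transcribed unprocessed pseudogenes and 2 as bidirectional promoter transcripts. A protein-coding gene overlapped 19 of them, and another 26 lay within 5000 bp of one. The library kit did not keep the strand, so reads from a LINC gene and an overlapping antisense transcript cannot be separated. Exon bases were shared with another gene of the table in 32 of the 143, and over 50% of them in LINC01089 (51.3%) and LINC01271 (59.2%, shared with LINC01270), whose values are uncertain for that reason. Of the 32, 1 was called higher and 7 lower in U87 OE, against 23 and 8 of the 111 without shared bases. After knockdown 6 of the 32 were called higher and 2 lower. The part of the overlap in these calls was not tested.

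The LINC genes were of low abundance, with a median of 540 counts over all libraries and a median FPKM of 1.67 over the groups. At least 10 counts were present in all 10 libraries for 80 of the 143. LINC00963, an RNA studied in several tumor types, had the most counts (11337) and passed no comparison, at 77.9, 79.0 and 79.5 CPM in SNB19 NC, 79.4, 79.5 and 76.3 in siMEOX2, 79.2 and 69.3 in U87 EV and 72.4 and 70.2 in OE. Per length, LINC00973 was the highest, at 14.2 ± 0.56 FPKM (SD, n = 3) in SNB19 NC, 9.54 ± 0.521 in siMEOX2, 43.3 ± 9.85 (n = 2) in U87 EV and 90.8 ± 4.29 in OE. LINC02392, LINC01444, LINC02434, LINC01023, LINC01116, LINC01605, LINC02001 (now SNHG30), LINC01137 (now ZC3H12A-DT) and LINC02009 followed, with means over the 4 groups of 29.8 down to 6.11 FPKM. Their levels were far from even over the groups. LINC02392 reached 113.0 ± 6.88 FPKM in U87 OE and stayed below 0.1 FPKM on average in both SNB19 groups, and LINC02009 stood at 12 ± 0.349 FPKM in SNB19 NC and 0.0692 ± 0.0385 in U87 EV.

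The first comparison was between siMEOX2 and NC in SNB19. Of the 143 LINC genes, 26 were higher and 9 lower after MEOX2 knockdown at an adjusted p under 0.05 (edgeR quasi-likelihood test over all 17312 genes tested), together 24.5%, where 15.7% of all genes tested (6.99% higher and 8.75% lower) and 17.5% of the 13785 genes with at least 200 counts were called. By direction, 18.2% of the LINC genes were called higher and 6.29% lower, against 7.47% and 10.0% of genes with at least 200 counts. Because the class was picked with this rise of non-coding genes known, the split is a description and no independent evidence. The median log2 fold change of the LINC genes was 0.32, that of all genes with 200 counts -0.02 and that of protein-coding genes -0.04.

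Other non-coding classes lay on the same side. Genes with at least 200 counts that GENCODE types as antisense had a median of 0.27, with 13.9% called higher and 2.54% lower, and those typed lincRNA, which include most of the LINC genes, 0.28. The summed level of the LINC genes was 1022 ± 7.38 CPM (SD, n = 3) in siMEOX2 and 858.8 ± 2.68 in NC, a ratio of 1.19, and 1.1 without the 5 genes with the largest increase in mean CPM (LINC00665, LINC02434, LINC00662, LINC00173 and LINC02577). The share of all counts in genes other than protein-coding ones moved with it, from 1.45% to 1.51% in NC to 1.72% to 1.77% in siMEOX2. The pseudogene share, 0.513% to 0.529% in NC and 0.540% to 0.548% in siMEOX2, moved less, and the part of these shares in the LINC result was not tested. Several marker lists moved in the same comparison, and their part in the LINC result was not tested either. The 8 glial and glioma markers summed to 152 to 165 CPM in NC and 55.7 to 68.2 in siMEOX2, with 4 of 6 tested called lower. The most abundant was SOX9 in NC and NES in siMEOX2. The 5 mesenchymal markers summed to 2640 to 2720 CPM and 1250 to 1360, with CD44, CHI3L1 and FN1 called lower, FN1 being the most abundant in NC. The 3 endothelial markers, most of it PECAM1, summed to 37.7 to 41.2 CPM and 5.86 to 8.81, with PECAM1 and CDH5 called lower. Of the 3 epithelial markers, which summed to 1.58 to 2.66 CPM and 4.69 to 5.01, CDH1 was called higher (3.72-fold, adjusted p = 0.035), and of the 3 neuronal ones (8.25 to 8.87 and 8.82 to 9.71 CPM, most of it SYT1) RBFOX3 was called lower.

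The 3 largest increases among the called genes were in LINC02577, LINC02434 and LINC00173. LINC02577 (chr7:106774955-106838480, plus strand; nearest protein-coding gene PIK3CG) measured 3.06, 2.63 and 1.52 CPM in NC and 13.6, 15.2 and 14.4 in siMEOX2, 5.96-fold higher (log2 fold change 2.58 ± 0.27 SE, adjusted p = 0.00068). LINC02434 (chr4:188160065-188161139, plus strand) measured 5.14, 4.71 and 4.37 CPM in NC and 21.0, 22.9 and 21.1 in siMEOX2, 4.56-fold higher (2.19 ± 0.15, adjusted p = 0.00019). LINC00173 (chr12:116533422-116536518, plus strand) measured 5.14, 2.08 and 3.95 CPM in NC and 15.7, 19.1 and 14.4 in siMEOX2, 4.36-fold higher (2.13 ± 0.31, adjusted p = 0.0027). In all 3, every knockdown library lay above every control library by more than the spread within either group, and the NC values of LINC00173 were the most scattered.

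LINC02434 lies 12322 bp from TRIML1 near the end of the long arm of chromosome 4. The RefSeq start region of LINC02434 is shown because the gene was called in both experiments and between the lines. In the window from 250 bases before to 50 bases after its RefSeq start (GRCh38.p14, chr4:188159803-188160102, plus strand), the 16-base word CACCTCCTTCCGGTCT, in capitals, is 1 of 4 overlapping words of that length tied as the most frequent, and is present in 6 copies spaced 47 to 50 bases apart. No other start region among the 35116 in the RefSeq table holds that word on the strand as listed.
LINC02434: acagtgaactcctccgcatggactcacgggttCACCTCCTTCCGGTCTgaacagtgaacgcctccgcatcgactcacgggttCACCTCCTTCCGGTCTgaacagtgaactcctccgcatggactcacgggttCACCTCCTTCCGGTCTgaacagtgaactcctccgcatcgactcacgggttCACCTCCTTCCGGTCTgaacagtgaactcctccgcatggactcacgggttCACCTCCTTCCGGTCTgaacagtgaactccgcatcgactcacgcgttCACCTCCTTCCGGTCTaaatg

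Smaller increases were found in well-studied members. LINC00665, a tumor-associated RNA from which a short protein has been reported, measured 38.0, 42.4 and 41.5 CPM in NC and 72.4, 71.6 and 68.3 in siMEOX2, 1.74-fold higher (0.80 ± 0.17, adjusted p = 0.015). LINC00662 rose from 8.84, 10.1 and 8.62 CPM to 20.2, 23.4 and 22.8 (2.42-fold, adjusted p = 0.0028), and LINC00667 from 11.3, 12.3 and 14 to 22.2, 19.7 and 21.3 (1.68-fold, adjusted p = 0.010). The knockdown and control libraries did not overlap in any of these genes, which also held for 62.7% of all genes with at least 200 counts. LINC00632, an antisense transcript over CDR1 and the known precursor of the circular RNA CDR1as, rose from 2.72, 2.15 and 1.76 CPM to 3.88, 4.44 and 5.01 (2.00-fold, adjusted p = 0.015), and the deposited counts do not separate linear from circular forms. LINC01535, LINC01271, LINC00887, LINC00471, LINC01186 and LINC00910 were 2.47-fold to 2.98-fold higher.

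The largest fitted decrease among the called genes was in LINC01561, a single-exon gene (chr10:120597949-120600124, plus strand), which measured 3.29, 3.6 and 3.83 CPM in NC and 1.22, 0.740 and 1.19 in siMEOX2 (log2 fold change -1.76 ± 0.33, adjusted p = 0.011). LINC00641 went from 24.4, 23.6 and 24.7 CPM to 11.2, 11.8 and 10.4 (log2 fold change -1.12 ± 0.19, adjusted p = 0.0045). LINC00461 went from 9.82, 8.53 and 9.23 CPM to 4.87, 3.39 and 2.95 (-1.30 ± 0.21, adjusted p = 0.0042). LINC01605 fell from 6.30, 6.10 and 6.80 CPM to 3.07, 2.90 and 2.95, and LINC01204, LINC02593, LINC01963, LINC01588 and LINC00346 (now PRECSIT) also passed the test, with log2 fold changes of -1.32 to -0.57.

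**Figure D2:**
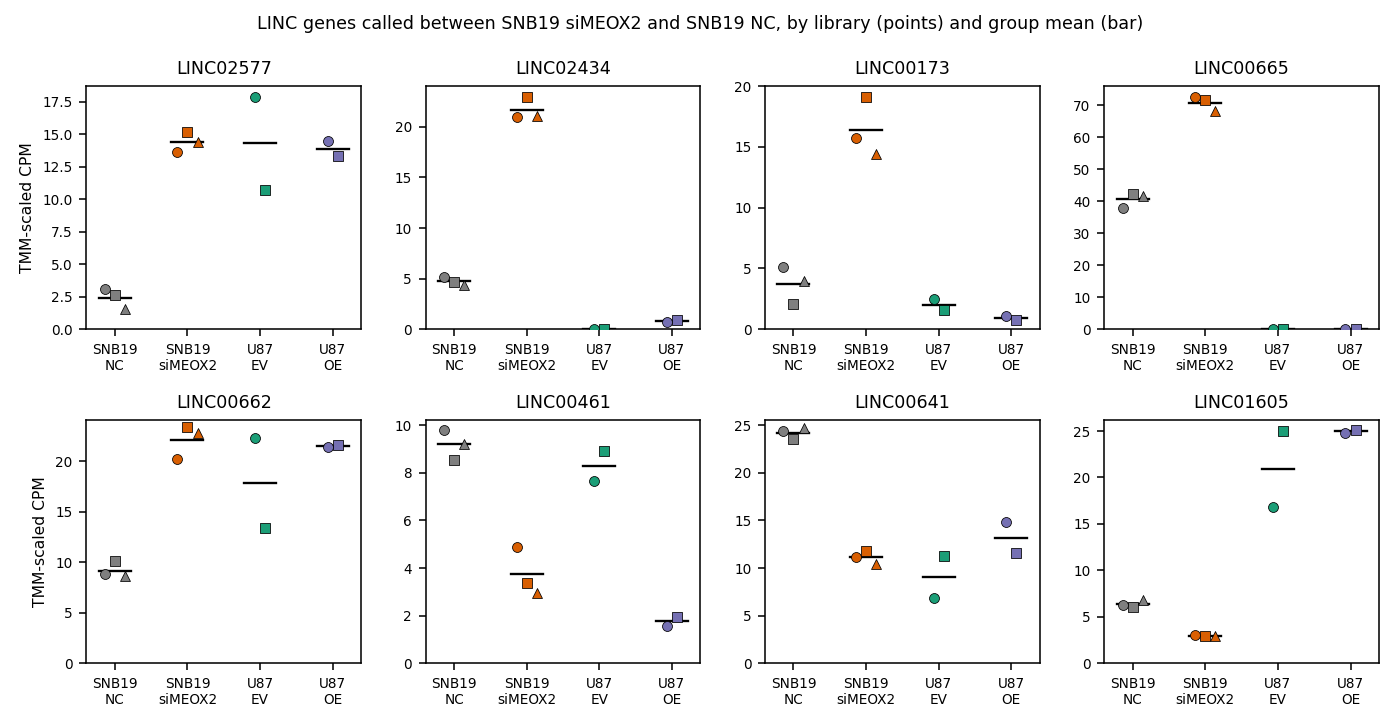
TMM-scaled CPM of 8 LINC genes called between SNB19 siMEOX2 and NC, in every library, with the U87 groups for reference; points are libraries and bars group means. The top row and LINC00662 are higher in all 3 knockdown libraries than in any NC library, and LINC00461, LINC00641 and LINC01605 lower.

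The number of calls depended on how the spread was estimated, whereas none of the 35 called genes changed sign. When only the 6 SNB19 libraries were fitted, 55 LINC genes were higher (42.3%) and 22 lower (16.9%) of the 130 that could be tested, including all 35 above. In that fit 27.4% of all genes were called higher and 28.5% lower, 55.9% together, so the share of LINC genes called (59.2%) was near the background while the split by direction again lay toward higher values. When any 1 SNB19 library was left out of the fit of all groups, 15 to 18 were called. The share of all genes called in those fits is not given, so the fall is not read as particular to LINC genes. Of the 35, 13 kept their call throughout: LINC00173, LINC00601, LINC00662, LINC00910, LINC01271, LINC01547, LINC01694, LINC02434 and LINC02577 higher, and LINC00461, LINC00641, LINC01204 and LINC01605 lower.

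The second comparison was between OE and EV in U87. Here 24 LINC genes were higher and 15 lower with MEOX2, together 27.3%, where 26.2% of all genes tested (11.3% higher and 14.9% lower) and 30.5% of genes with at least 200 counts were called, so the share was near the background. The median log2 fold change was 0.00, against -0.04 for genes with at least 200 counts. Without EV replicate 1 it was 0.19 against 0.04, with 34 LINC genes higher and 15 lower (34.3%, against 38.9% of all genes and 48.9% of those with 200 counts). Without EV replicate 2, which leaves the library that stood apart as the lone control, 38 were higher and 42 lower (55.9%, against 59.5% and 72.2%). In both, the lone control is assumed to vary like the other groups. With the 4 U87 libraries fitted alone, edgeR called 0 of 113 LINC genes and 0 of all 14180 genes, with 31 LINC genes (27.4%) and 2643 of all genes (18.6%) at an unadjusted p under 0.05.

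The summed level was 1267 ± 22.8 CPM (SD, n = 2) in OE and 1048 ± 229 in EV. The EV libraries differed, with 1210 CPM in replicate 1 and 885 in replicate 2, against 1283 and 1251 in OE, so the OE libraries lay above both. LINC02392, LINC00520 and LINC00973 together measured 89.9 and 54.7 CPM in EV and 285 and 282 in OE. Without these 3 genes the sums were 1120 and 831 in EV and 998 and 969 in OE, which overlap because of EV replicate 1, and the OE libraries were still above EV replicate 2. The share of counts in genes other than protein-coding ones was 1.43% and 1.31% in EV and 1.69% and 1.62% in OE. The mesenchymal markers, with VIM the most abundant in EV replicate 1 and FN1 in EV replicate 2, summed to 7160 and 4920 CPM in EV and 2430 and 2370 in OE, with VIM, CHI3L1 and FN1 called lower, and the endothelial ones to 8.20 and 7.63 CPM and 2.40 and 1.58, with PECAM1 and VWF called lower. The glial and glioma markers summed to 54.2 and 56.7 CPM and 41.1 and 39.2, with NES 16.2-fold lower and OLIG2 3.44-fold higher. Of the epithelial and neuronal markers EPCAM and SNAP25 were called lower. The part of these in the LINC result was not tested.

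LINC02392 (chr12:90280894-90300340, plus strand), whose nearest protein-coding gene ATP2B1 lies 571594 bp away, measured 3.30 and 11.6 CPM in EV and 138.0 and 128.0 in OE, 17.7-fold higher (4.14 ± 0.50, adjusted p = 0.00066). It was 11.8-fold higher without EV replicate 1 and 41.1-fold without EV replicate 2, and each of these fits leaves a lone control library. It made up 10.7% and 10.2% of all LINC counts in the OE libraries, the largest share of any member there. LINC00520, studied in several carcinomas, measured 16.8 and 6.28 CPM in EV and 59.6 and 58.7 in OE, 5.14-fold higher (2.36 ± 0.42, adjusted p = 0.0043; 9.69-fold without EV replicate 1).

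Several RNAs rose from very low levels. LINC01326 had 13 and 3 counts in EV and 213 and 206 in OE, and LINC02376 16 and 11 counts against 146 and 222 (log2 fold changes 4.59 ± 0.62 and 3.65 ± 0.49, adjusted p = 0.0066 and 0.0026). The fold change of LINC01326 moved from 24.2 to 71.8 without EV replicate 1 and to 14.2 without EV replicate 2, that of LINC00972 from 3.82 to 5.89 without EV replicate 1, and that of LINC00943 from 6.50 to 14 without EV replicate 2. LINC02009 had 2 and 4 counts in EV and 42 and 31 in OE, 11.3-fold higher, while in SNB19 it was abundant and did not pass the test between siMEOX2 and NC (0.902-fold, adjusted p = 0.57). LINC00943 and LINC00944, whose GENCODE intervals overlap on opposite strands at chr12:126729787-126746252, were 6.50-fold and 4.02-fold higher. LINC00886 (7.19-fold), LINC00972 and LINC00632 (3.55-fold) were also among the 10 leading increases. LINC02434 had 0 counts in both EV libraries and 9 and 13 in OE, at least 6.90-fold higher against the floor of 3 counts over the group, and LINC01399, with 0 and 0 against 3 and 2, at least 1.61-fold.

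Of the decreases, LINC01551 measured 16 and 9.50 CPM in EV and 2.73 and 2.38 in OE (log2 fold change -2.31 ± 0.36, adjusted p = 0.0022). LINC00461 went from 7.67 and 8.90 CPM to 1.57 and 1.94 (-2.23 ± 0.28, adjusted p = 0.00087). LINC00460, an RNA studied in carcinomas and glioma, went from 47.1 and 29 CPM to 13.6 and 13.2 (-1.5 ± 0.22, adjusted p = 0.0019). The OE libraries lay below both EV libraries in all 3. LINC01116, also studied in glioma, went from 51.3 and 20.8 CPM to 12 and 11.8. Much of its fitted change of -1.59 rests on EV replicate 1, without which it was -0.76. The same held for LINC01137 (-2.05 with and -1.03 without it), LINC01711 (-3.38 and -2.18; -4.01 without EV replicate 2), LINC01232 (-1.58 and -0.92) and LINC01089 (-1.45 and -0.71). LINC01411, LINC00601, LINC01232, LINC01089, LINC00511 and LINC01588 fell as well, by 1.24 to 1.74 on the log2 scale.

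**Figure D3:**
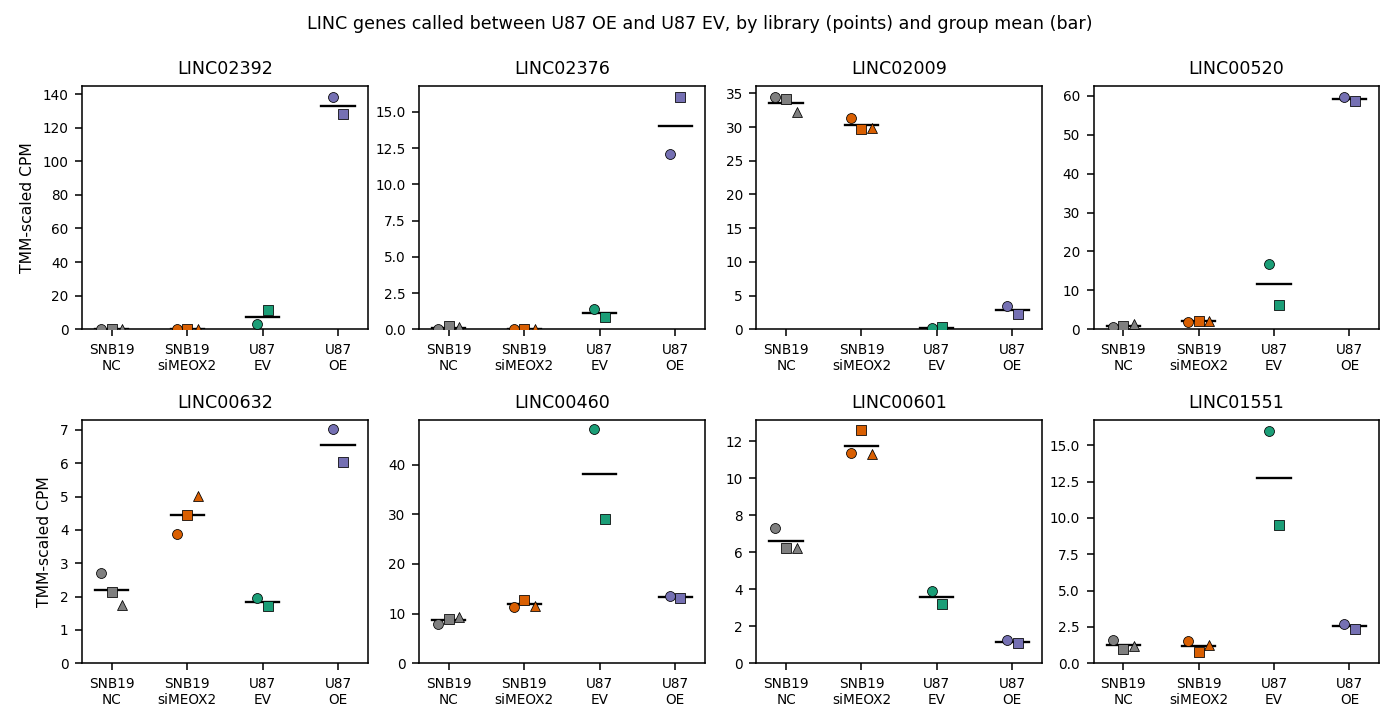
TMM-scaled CPM of 8 LINC genes called between U87 OE and EV, in every library, with the SNB19 groups for reference; points are libraries and bars group means. LINC02392, LINC02376, LINC02009, LINC00520 and LINC00632 are higher in both OE libraries than in either EV library, and LINC00460, LINC00601 and LINC01551 lower; the EV circles are replicate 1.

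Each fit without 1 U87 library leaves a lone library in its group, so calls kept in these fits are not read as support for a gene. LINC01326, LINC00972, LINC01711 and LINC01116 lost their call in at least 1 of these fits.

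The 2 experiments moved MEOX2 in opposite directions, and they share no control libraries. Of the 143 genes, 27 were called only in SNB19, 31 only in U87, 8 in both and 77 in neither. Among the 8, 4 were higher in both (LINC00174, LINC02434, LINC00632 and LINC01881), 3 lower in both (LINC01588, LINC00461 and LINC01561) and 1 higher after knockdown and lower with overexpression (LINC00601). With any 1 SNB19 library left out, 3 of the 8 kept their SNB19 call (LINC00461, LINC00601 and LINC02434). Fits without 1 U87 library leave a lone library in its group, so the U87 calls in them are not read. No LINC gene was called lower after knockdown and higher with overexpression, a class that held 0.82% of all genes tested. With so small a share, its absence among 143 genes is not read as a result. Over all genes tested 6.04% were called in both experiments and 4.59% in the same direction, against 5.59% and 4.90% of the LINC genes, so both shares were near the background. Of all genes called in both, 76.0% had the same direction. LINC00601 (chr10:126413869-126421879, minus strand) measured 7.34, 6.24 and 6.25 CPM in NC and 11.4, 12.6 and 11.3 in siMEOX2 (1.78-fold, adjusted p = 0.0076), and 3.92 and 3.21 in EV and 1.24 and 1.08 in OE (0.327-fold, adjusted p = 0.0018). The difference between its 2 effects was 2.45 on the log2 scale (adjusted p = 0.0012).

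LINC01588, with 28 exon blocks over chr14:49927571-50092643 (minus strand), measured 7.92, 8.25 and 9.11 CPM in NC, 5.33, 5.43 and 4.64 in siMEOX2, 8.29 and 7.33 in EV and 2.82 and 2.95 in OE. LINC01561 had 6 and 2 counts in EV and 0 in both OE libraries, at least 2.96-fold lower, and lost its U87 call without EV replicate 1 (adjusted p = 0.12). LINC00174, an alternatively spliced transcript that overlaps TPST1, measured 4.99 and 5.91 CPM in EV and 11.2 and 8.49 in OE (1.80-fold, adjusted p = 0.014), close in size to its 1.63-fold change in SNB19.

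Tested gene by gene, the difference between the knockdown and the overexpression effects was called in 25 LINC genes (17.5%), 15 with the higher value after knockdown and 10 with the lower, where 15.7% of all genes tested (8.36% and 7.33%) and 18.6% of genes with 200 counts were called. The count was 9 to 18 without 1 SNB19 library, and no share of all genes is given for those fits. It also changed without 1 U87 library, which leaves a lone library in its group, so those counts are not read. With any 1 SNB19 library left out, LINC00173, LINC00460, LINC00601, LINC00641, LINC01232, LINC01605, LINC02009 and LINC02577 kept this call. Besides LINC00601, the difference was called for LINC02577 (2.61, adjusted p = 0.0044), LINC00173 (3.30, 0.0075), LINC00460 (1.95, 0.0036) and LINC00662 (1.00, 0.048), and in the other direction for LINC02009 (-3.65, 0.00073), LINC00641 (-1.65, 0.0080) and LINC01605 (-1.36, 0.011), as differences of log2 fold changes. For LINC00461 it was 0.93 (adjusted p = 0.10), for LINC00632 -0.82 (0.14) and for LINC00174 -0.14 (0.74), so no difference between the experiments passed the test in these 3 genes.

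**Figure D4:**
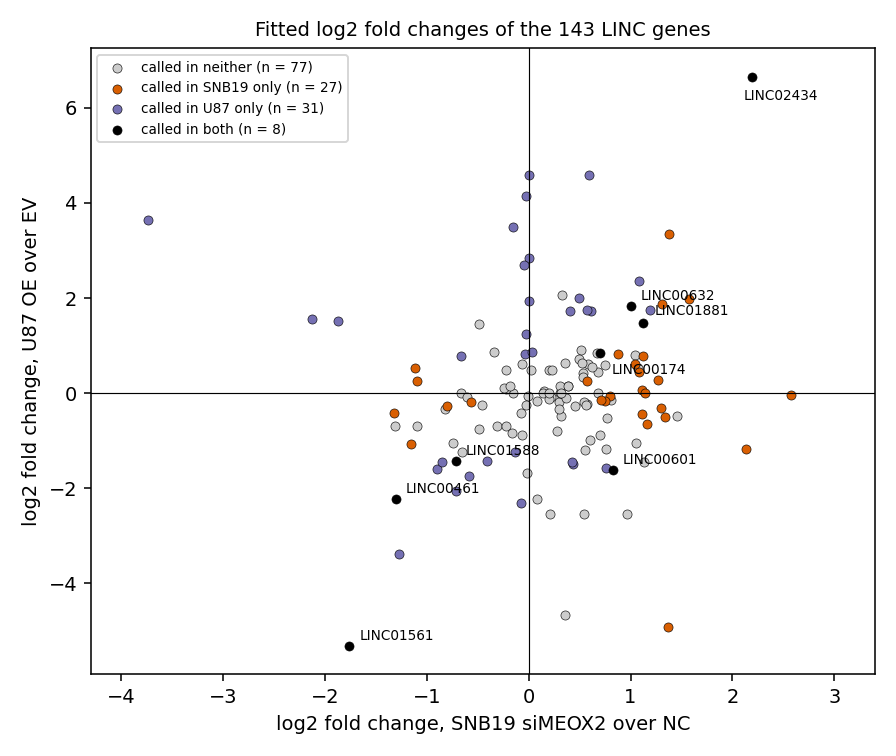
Fitted log2 fold change of each of the 143 LINC genes in SNB19 (siMEOX2 over NC, horizontal) and U87 (OE over EV, vertical), colored by the comparison in which it was called; the 8 genes called in both are named. The fitted folds of genes at 0 in a whole group, such as LINC02434 and LINC01561 on the vertical axis, are not bounds; 7 of the 8 named genes lie in the quadrants where both changes have the same sign, as did 76.0% of all genes called in both.

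Some LINC genes are hosts of microRNAs, whose mature forms poly(A)-selected libraries do not measure. LINC00461 was lower in both experiments and contains MIR9-2, from which the abundant brain microRNA miR-9 is made. LINC00472 contains MIR30A and MIR30C2 and measured 2.08, 2.63 and 1.88 CPM in NC and 3.77, 4.63 and 5.45 in siMEOX2 (log2 fold change 1.07 ± 0.46, adjusted p = 0.16, and 0.00024 with the SNB19 libraries alone). The mature sequences follow from RefSeq (GRCh38.p14), 5' to 3', with the seed (bases 2 to 8) in capitals. miR-30a-5p and miR-30c-5p share the seed GUAAACA, which miR-9-5p does not have. They are shown to identify what these host transcripts carry, and their levels were not measured here.
miR-9-5p (in LINC00461, chr5:88666902-88666924, minus strand): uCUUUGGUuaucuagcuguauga
miR-9-3p (in LINC00461, chr5:88666866-88666887, minus strand): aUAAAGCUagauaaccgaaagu
miR-30a-5p (in LINC00472, chr6:71403595-71403616, minus strand): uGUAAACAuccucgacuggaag
miR-30c-5p (in LINC00472, chr6:71377003-71377025, minus strand): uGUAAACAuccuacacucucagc

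MEOX2 belongs to the homeodomain factors, many of which bind sites with the core TAATTA, a palindrome that reads the same on both strands. A RefSeq start region of 300 bases was found for 109 of the 143 genes, and 7 of these (6.42%) held TAATTA, against 1699 of all 35116 regions (4.84%). Those with a call in SNB19 were LINC00910, LINC01278 and LINC01355, which made 3 of the 19 genes higher after knockdown that had a region, and 0 of 5 among the genes lower after knockdown. In U87, LINC00972 and LINC01550 were 2 of 15 higher with MEOX2, and LINC00460 was 1 of 12 lower. These counts are small and were not tested, and a match is a description of the letters. The regions of LINC00910 (chr17:43388849-43389148, minus strand), LINC00972 (chr7:85420872-85421171, plus strand) and LINC01550 (chr14:97978075-97978374, minus strand) are shown from RefSeq (GRCh38.p14) as the TAATTA-holding starts with the largest increases of their genes, with TAATTA in capitals. In LINC00910, the RefSeq start lies 301 bp from the GENCODE start.
LINC00910: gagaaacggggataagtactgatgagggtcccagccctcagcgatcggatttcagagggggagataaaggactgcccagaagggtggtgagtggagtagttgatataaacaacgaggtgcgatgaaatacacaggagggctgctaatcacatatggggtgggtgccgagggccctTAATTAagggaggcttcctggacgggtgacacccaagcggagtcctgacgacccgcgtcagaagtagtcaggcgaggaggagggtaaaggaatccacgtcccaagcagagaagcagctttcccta
LINC00972: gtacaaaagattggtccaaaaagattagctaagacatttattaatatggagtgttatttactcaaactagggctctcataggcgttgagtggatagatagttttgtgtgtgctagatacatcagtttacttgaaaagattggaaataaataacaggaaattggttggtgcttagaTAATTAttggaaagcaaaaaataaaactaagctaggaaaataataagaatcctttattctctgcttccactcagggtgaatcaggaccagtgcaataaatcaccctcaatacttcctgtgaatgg
LINC01550: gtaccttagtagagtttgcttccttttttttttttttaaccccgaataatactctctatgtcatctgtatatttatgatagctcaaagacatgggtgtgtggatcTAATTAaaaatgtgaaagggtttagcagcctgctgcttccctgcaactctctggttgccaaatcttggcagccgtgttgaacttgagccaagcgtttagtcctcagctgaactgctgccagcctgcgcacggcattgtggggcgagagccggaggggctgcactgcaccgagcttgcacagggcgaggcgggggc

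LINC00910 measured 1.91, 2.91 and 3.28 CPM in NC and 6.78, 6.85 and 6.33 in siMEOX2 (adjusted p = 0.0058), and 3.48 and 2.62 in EV against 2.49 and 2.38 in OE (adjusted p = 0.45). LINC01550 measured 8.47 and 4.93 CPM in EV and 18.9 and 20.6 in OE (2.96-fold, adjusted p = 0.025), with at most 6 counts in any SNB19 library. LINC00972 measured 3.92 and 1.94 CPM in EV and 10.6 and 11.7 in OE and had no count in SNB19.

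The third comparison was between the control cells, SNB19 NC and U87 EV, where the cell line and the kind of control cannot be told apart. It gave the largest number of calls: 51 LINC genes were higher in SNB19 and 52 in U87, together 72.0%, where 56.9% of all genes tested (28.1% higher and 28.8% lower in SNB19) and 59.6% of those with 200 counts were called. A gene abundant in 1 line alone can pass a minimum on the summed count, so the excess over the background is not read as a property of LINC genes. Without EV replicate 1, 58 were higher in SNB19 and 45 in U87, again 72.0%, against 63.4% of all genes tested and 72.3% of those with 200 counts.

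On the SNB19 side, 7 LINC genes had no count in any U87 library. LINC00470 (chr18:1254383-1408344, minus strand) measured 11, 10.7 and 12.6 CPM in NC, at least 93.8-fold above a floor of 3 counts over the EV libraries. LINC02582 and LINC01348 were at least 86.6-fold and 75.2-fold higher, and LINC01446, LINC01315, LINC02525 and LINC01534 at least 14.9-fold to 27.6-fold. In none of the first 5 did siMEOX2 differ from NC by the test. LINC00665 had 658, 611 and 684 counts in NC and 1 and 0 in EV (adjusted p = 3.6e-07), and its neighbor ZFP14, 2735 bp away on the same strand, had 5.72 CPM in NC and 0 in U87. LINC01535, on the same arm of chromosome 19, had 40, 49 and 36 counts in NC and 0 in EV, and its neighbor ZNF383 was also lower in U87 EV (9.94 against 1.32 CPM, adjusted p = 1.9e-05). LINC02434 had 89, 68 and 72 counts in NC and 0 in EV, at least 38.9-fold higher.

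On the U87 side, LINC00972, LINC00886 and LINC01326 had no count in any SNB19 library, and were at least 47.2-fold, 27.0-fold and 11.1-fold higher in EV. In EV replicate 2 alone the bounds were 31.2-fold, 25.2-fold and 3.6-fold. LINC02392 and LINC01291 each had 1 count in the 3 NC libraries together. LINC02084, which lies 1944 bp from the gene for the transcription factor EOMES, had 85 and 32 counts in EV and 0, 2 and 1 in NC (adjusted p = 0.00039), and LINC01050 142 and 120 against 2, 5 and 7 (adjusted p = 4.3e-05). The fitted log2 difference of LINC02084 was -6.12 with and -5.09 without EV replicate 1. LINC01550 and LINC01410 were also on this side.

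**Figure D5:**
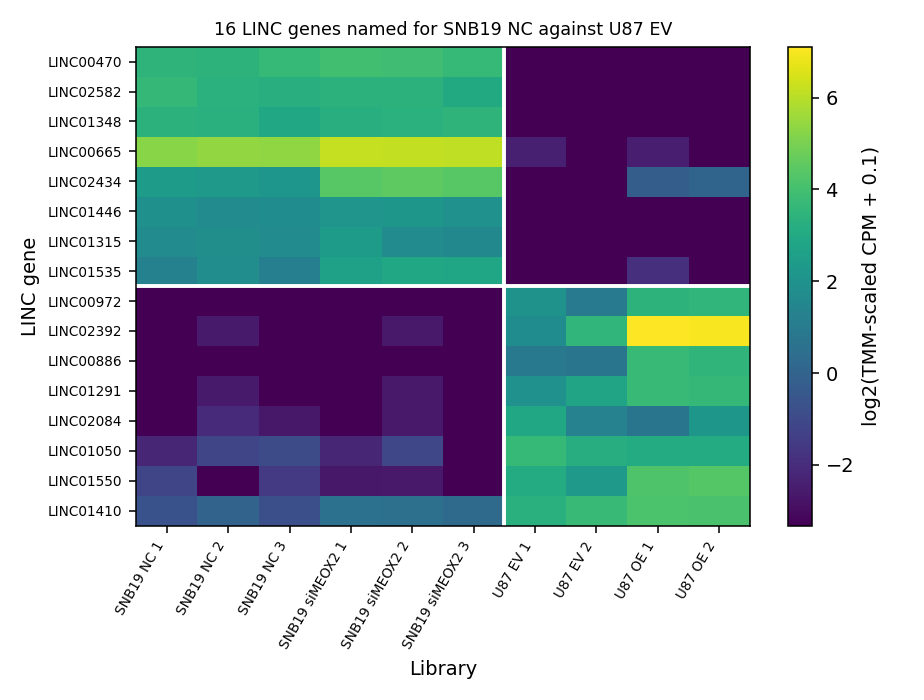
Level of 16 LINC genes in each library, as log2 of TMM-scaled CPM plus 0.1; rows are, in each direction, the 8 called genes with the largest fitted difference between SNB19 NC and U87 EV among those with groups that do not overlap and at least 1 CPM in the higher group, columns the 10 libraries. The upper 8 are at or near 0 in U87, apart from LINC02434 with 9 and 13 counts in OE. The lower 8 are at or near 0 in SNB19, apart from LINC01410. LINC01410 had 8 to 13 counts in NC and was called higher in siMEOX2 (log2 fold change 1.04).

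LINC genes with a record in tumor research were taken from a list of 30, of which 23 could be tested and 19 were among the 143. On it, 6 were higher and 1 lower after knockdown, 3 higher and 4 lower with overexpression, and 9 higher in SNB19 and 8 in U87 at baseline. The shares of the 23 were 26.1% and 4.35% after knockdown (6.99% and 8.75% of all genes tested), 13.0% and 17.4% with overexpression (11.3% and 14.9%) and 39.1% and 34.8% at baseline (28.1% and 28.8%). The U87 and baseline counts of this list depended on which EV library was used. Leaving either out leaves a lone control, so no counts from such fits are given for the list. Among those that did not pass in either experiment, LINC00941 measured 15.0 and 22.4 CPM in EV and 31.4 and 26.2 in OE (adjusted p = 0.070), and LINC01234 17.1, 16.2 and 20.2 in NC and 17.6, 18.2 and 18.4 in siMEOX2 (adjusted p = 0.99). LINC01234 differed between the lines, with 0.446 and 0.972 CPM in EV (24.3-fold, adjusted p = 2.6e-05). LINC01503 measured 3.87, 5.55 and 4.55 CPM in NC and 1.43 and 0.149 in EV, and the size of its difference depended on the EV library that stood apart (log2 fold change 2.61 with and 4.87 without EV replicate 1). LINC01094 and LINC00839 passed only at baseline, the former higher in U87 and the latter in SNB19. LINC00467, from which a mitochondrial short protein has been reported, measured 10.5, 10.9 and 11.4 CPM in NC and 15.8, 17.0 and 20.4 in siMEOX2, with no overlap but an adjusted p of 0.11, and 2.1e-05 with the SNB19 libraries alone.

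The protein-coding neighbor moved with some LINC genes and not with others. Of the LINC genes called after knockdown, 27 had a tested nearest protein-coding gene, which was called in 9 cases (33.3%), 6 in the same direction. With overexpression it was 16 of 32 (50%), 12 in the same direction, and at baseline 48 of 81 (59.3%), 38 in the same direction. For comparison, 17.8%, 31.7% and 59.8% of protein-coding genes with 200 counts were called. LINC00601 and its neighbor C10orf90, 3118 bp away on the same strand, were both lower in OE (C10orf90 41.1 CPM in EV and 17.9 in OE, adjusted p = 0.0059). At baseline the pair went apart, LINC00601 being higher in SNB19 (log2 fold change 0.89) and C10orf90 lower (-2.67, adjusted p = 7.7e-06), and after knockdown LINC00601 was higher while C10orf90 had a log2 fold change of -0.63 that did not pass the test (adjusted p = 0.062). LINC01137 and ZC3H12A, which lie 141 bp apart on opposite strands, moved apart in U87: ZC3H12A, an RNase gene of inflammatory signaling, was at 77.4 CPM in EV and 130 in OE (adjusted p = 0.024). LINC00461 and MEF2C did not move together (MEF2C 8.89 CPM in NC and 9.51 in siMEOX2, adjusted p = 0.77).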

How the data were processed

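RNA was measured by poly(A)-selected, non-directional paired-end RNA-seq in 10 libraries of 4 groups. Per the labels, the authors aligned reads to GRCh38 with HISAT2 and counted them with HTSeq 0.11.2. The deposited table holds raw read counts per gene and the authors' FPKM values, scaled by the length of each gene and the depth of each library. Counts of all 10 libraries were fitted in edgeR 4.0.16 (R 4.3.3; TMM scaling, filterByExpr, quasi-likelihood test, 4 groups), with Benjamini-Hochberg adjustment over the 17312 genes kept, and a call at an adjusted p under 0.05. All 143 LINC genes passed the filter. The scripts were tested on simulated counts with the same spread in every gene and no library that stood apart. That test says nothing about calls that rest on U87 EV replicate 1. CPM values are TMM-scaled. Positions are from GENCODE release 29 (GRCh38). The members and gene lists were chosen with earlier results of these data known. Genes named are the 10 highest by FPKM, up to 10 called genes per direction in each experiment and 8 at baseline (groups not overlapping, at least 1 CPM in the higher group), those called in both experiments, and those on the tumor and short-protein lists. Alternatives were DESeq2 1.42.0, limma 3.58.1 on log2(FPKM + 0.1), other scalings, filters and call rules, a replicate block, and leaving out each library.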

Additional observations from a re-analysis of the deposited data

How the results depend on the processing

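No LINC gene called in a comparison changed sign in it in any other fit. Of those not called, 21 of 108 changed sign after knockdown, 46 of 104 with overexpression and 25 of 40 at baseline, and those that then passed the test were LINC00896 and LINC01023 (overexpression) and LINC00467, LINC00997 and LINC02323 (baseline) without U87 EV replicate 1, and LINC01444 (overexpression) without EV replicate 2; LINC00472 did so for the difference between the effects without EV replicate 2. For the 3 comparisons, DESeq2 size factors, total-count and upper-quartile scaling, DESeq2, limma on FPKM and other filters kept the counts of called LINC genes within 1.5 times. Total-count scaling moved the median of all tested genes by 0.08, 0.16 and 0.35 in the knockdown, overexpression and baseline comparisons, and the LINC medians to 0.41, 0.10 and 0.36. The knockdown count of 35 became 77 with only the SNB19 libraries, 74 with the shared spread estimated without U87 EV replicate 1 (an alternative chosen after seeing the data), 15 to 18 without 1 SNB19 library, and 66 to 77 (68 in 3 of 6 fits) when 1 was left out of the SNB19 fit (also chosen after seeing the data). The overexpression count of 39 became 0 with only the U87 libraries, where 0 of all 14180 genes were called, and 18 to 80 without 1 U87 library. The 80, without EV replicate 2, were a smaller share of the LINC genes than the share of all genes called in that fit. Fits without 1 U87 library leave a lone library in its group. No conclusion is drawn from their counts, here or for the difference between the effects. The count of 25 differences between the effects became 8 to 67 without 1 library, and 38 by an unadjusted p under 0.05 with a log2 fold change above 1. A minimum of 100 summed counts gave 218 genes and a minimum of 500 gave 74, of which 23 were called with overexpression and 52 at baseline. The knockdown count and the share of all genes at that minimum are not given here, so nothing is concluded from these counts. The replicate numbers did not pair the libraries (correlations of 0.003 to 0.059 for equal numbers in SNB19 and -0.162 in U87). The sample titles give the U87 OE libraries the same number in their second part, so the numbers used follow the first part. With a replicate block 15 LINC genes were called after knockdown (10.5%, against 5.61% of all genes), 21 with overexpression (14.7%, against 12.3%) and 6 for the difference (against 4.03% of all genes). With crossed U87 numbers, also chosen after seeing the data, 41 were called with overexpression (28.7%, against 21.4%). The causes of these changes in counts were not tested. No share of all genes is given for the fits without 1 SNB19 library, so their counts have no background. At 12533775 to 16560324 counts a library, genes near 200 summed counts had few counts in each library, which limits what could be detected.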

Other observations

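Long non-coding RNAs with names of their own were taken from a list of 33, of which 27 could be tested. After knockdown 4 were higher and 2 lower, with overexpression 3 were higher and 3 lower, and at baseline 2 were higher in SNB19 and 14 in U87. These are 22.2%, 22.2% and 59.3% of the 27, against 15.7%, 26.2% and 56.9% of all genes tested. Without U87 EV replicate 1, 15 were higher and 3 lower with overexpression, and 5 were higher in SNB19 and 13 in U87 at baseline (of 28 tested, where 20.4% and 18.4% and then 32.5% and 30.9% of all genes were called), and CYTOR, LINC-PINT, SNHG12 and ZFAS1 were no longer among those higher in U87. Without EV replicate 2 the counts were 7 higher and 11 lower with overexpression (30.4% and 29.1% of all genes) and 7 higher in SNB19 and 18 in U87 at baseline (38.1% and 35.6% of all genes), so they depend on which EV library is used. NEAT1, the scaffold of nuclear paraspeckles, had 5368, 4462 and 5467 counts in NC and 6903, 7422 and 7447 in siMEOX2 (1.39-fold, adjusted p = 0.036), and was also higher in OE than in EV (1.71-fold, adjusted p = 0.0084). MALAT1, a nuclear speckle RNA, had 3838, 4007 and 5379 counts in NC and 2900, 3151 and 3258 in siMEOX2 (log2 fold change -0.54, adjusted p = 0.041). MIAT had 253, 204 and 229 counts in NC, 433, 405 and 407 in siMEOX2 and at most 7 in any U87 library. Among LINC genes under the minimum of 200 counts, LINC00707 had 8, 4 and 7 counts in NC and 20, 19 and 19 in siMEOX2 (2.95-fold, adjusted p = 0.027) and none in U87.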
